A study of Rattus norvegicus with 110 samples.

Results

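The 200 genes described here were those whose level moved most alike in the liver and the kidney of the same male rat. They were chosen in 27 vehicle males with both organs, matched by animal number. Counts were scaled to the total of each library (CPM) and taken as log2(CPM + 1), the mean of each male's group was removed in each organ, and Pearson's r between the liver and kidney values was computed for each of the 8295 genes with a mean of at least 5 CPM in both organs, of 31998 genes in all. The 200 genes of highest r were kept. They were thus chosen by the measured values of the vehicle males, and r and every other measure of how these males varied within their groups are given as a description, with no test.

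The males were F2 offspring of outbred Sprague Dawley rats in a study of whether liver injury by carbon tetrachloride (CCl4, a solvent that is toxic to hepatocytes) in male ancestors alters the response of their descendants. Every F2 male received 0.5 mL/kg by oral gavage 3 times per week over 39 days, starting at 9 to 11 weeks of age, and tissue was taken a day after the last dose. The vehicle, plain olive oil, went to groups 11, 14, 17 and 20. Groups 12, 15, 18 and 21 received the low dose of 8% v/v CCl4, and the high dose of 50% v/v went to groups 13, 16, 19 and 22, both in olive oil. The sires and grandsires had been given olive oil or 50% v/v CCl4 themselves. Neither was treated in cohort A (groups 11 to 13), the F1 sire alone in cohort B (14 to 16), the F0 grandsire alone in cohort C (17 to 19) and both in cohort D (20 to 22). Each group held 7 males, apart from group 17 with 6. RNA was measured in all 83 livers and in the 27 vehicle kidneys alone, so that the kidney holds no dosed sample. Litter mates were spread over dose groups, and each of the 34 litters was taken on 1 of 4 necropsy dates. Males of a litter share parents, so they are not fully independent, and p-values measure the spread between males. In bulk tissue, a change in the share of a cell type cannot be told apart from a change in RNA per cell.

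Library totals ranged from 31638559 to 51343589 counts in liver and from 21961746 to 35055218 in kidney. Median correlation with the other libraries of the group was lowest in liver for replicate 5 of group 22 (0.826) and replicate 3 of group 17 (0.888), and most counts of members that use either liver are given with and without it. Counts taken across cohorts at the high dose, those with 1 mean per litter and those under other settings are given only with both livers. The organs were told apart by the markers that carried a symbol, although none of the 8 listed hepatocyte markers did. Lrp2, the endocytic receptor megalin of the proximal tubule, was at 3.2 to 33.8 CPM in liver and 2740 to 4700 CPM in kidney, and Tat, the hepatic tyrosine aminotransferase, at 265 to 2680 CPM in liver and at most 1.21 CPM in kidney.

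Several of the named members belong to the circadian clock. In this feedback loop the factors Bmal1 and Clock drive the genes of the repressors Per and Cry and of the nuclear receptors Nr1d1 and Nr1d2 (REV-ERB alpha and beta), which in turn shut the loop down, and output factors such as Dbp carry the rhythm to metabolic genes. Clocks run in both liver and kidney, and hormones that reach all organs help to set them. Glucocorticoids, the adrenal steroids that follow both the time of day and stress, induce a shared set of genes in many tissues, among them Fkbp5, Tsc22d3, Zbtb16 and Per1. Outbred animals also differ in inherited variants, and a variant that sets the level of a transcript can act in every organ of its carrier.

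Gene symbols were taken from a supplementary list of the study, which paired 1489 identifiers with a symbol and was made for an effect of F0 treatment in these same samples. Of the 200 members, 34 carried a symbol, and the other 166 are given by their Ensembl identifier. The share of clock and hormone genes among the named members therefore cannot be read as a share of all members, and their F0 effects are not independent evidence of that effect.

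Promoter sequence is shown for the members in which a clock or hormone motif was found. RefSeq (build GRCr8) held a promoter for 25 of the 34 genes with a symbol. The 250 bases before each start were searched on both strands for the E-box CACGTG bound by Clock and Bmal1, the D-boxes TTATGTAA and TTACGTAA bound by Dbp, the full palindromic glucocorticoid response element and its core ACANNNTGT, and the cAMP response element TGACGTCA, where N is any base. The core lies within the full element. The E-box was in the windows of 2 genes, Nr1d1 and Ddx18, and in 5.59% of 33469 promoters in all. The core ACANNNTGT was in that of Tsc22d3 and in 5.81% of all promoters. The other motifs were in none of these windows, and in 0.828%, 0.108%, 0.012% and 1.59% of all promoters in the order of TTATGTAA, TTACGTAA, the full response element and TGACGTCA, which says only that these letters are not in the window. The 3 windows with a match are shown with the match in capitals, 5′ to 3′ on the minus strand, at chr10:84229455-84229704 for Nr1d1, chr13:35295973-35296222 for Ddx18, an RNA helicase of ribosome assembly, and chrX:109065431-109065680 for Tsc22d3.
Nr1d1: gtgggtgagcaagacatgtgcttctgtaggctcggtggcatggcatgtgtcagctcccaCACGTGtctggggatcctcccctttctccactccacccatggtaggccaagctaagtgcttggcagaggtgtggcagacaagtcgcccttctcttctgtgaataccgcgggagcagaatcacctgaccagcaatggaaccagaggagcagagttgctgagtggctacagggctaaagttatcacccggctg
Ddx18: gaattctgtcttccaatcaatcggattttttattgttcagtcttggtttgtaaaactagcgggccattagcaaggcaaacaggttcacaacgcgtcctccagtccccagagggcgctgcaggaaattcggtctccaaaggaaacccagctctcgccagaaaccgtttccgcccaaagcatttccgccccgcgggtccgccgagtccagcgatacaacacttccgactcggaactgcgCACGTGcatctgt
Tsc22d3: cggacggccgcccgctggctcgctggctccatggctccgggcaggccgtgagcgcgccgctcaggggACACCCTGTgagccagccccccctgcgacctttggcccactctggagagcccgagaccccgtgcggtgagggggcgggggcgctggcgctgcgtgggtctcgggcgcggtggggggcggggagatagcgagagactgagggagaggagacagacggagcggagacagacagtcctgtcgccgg

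Across the members, r between the organs ranged from 0.572 to 0.991 with a median of 0.674, against a median of -0.000323 over all 8295 genes. The last gene inside the group had an r of 0.5717 and the first outside it 0.5716, so that the limit falls on no gap. Members varied more between males of a group than other genes did. The median residual SD of log2(CPM + 1) was 0.353 in liver and 0.259 in kidney, against 0.25 and 0.16 over all 8295 genes. With the members alone, the kidney profile most like a male's liver was that male's own in 27 of 27 males, which the choice of genes fixes. With the 8095 other genes it was in 7 of 27. Those genes were each scaled to the same spread and the members were not, so the counts are not the same measure.

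**Figure D1:**
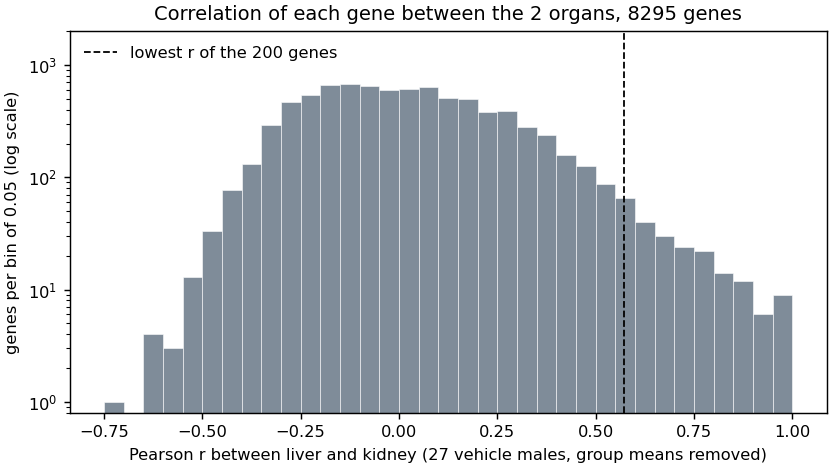
Histogram of Pearson's r between liver and kidney for 8295 genes in the 27 vehicle males, with group means removed. The x axis is r in bins of 0.05, the y axis the number of genes on a log scale, and the dashed line marks the lowest r of the 200 members (0.572), which lie to its right.

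The organs of a male share a litter, a date and the handling of that male. The necropsy date took a median of 16.8% of the residual variance of the members in vehicle liver, below the 26.2% over all 8295 genes, and 14.5% in vehicle kidney, above 11.5%. In the 25 vehicle males that had dosed litter mates, the correlation of the vehicle liver with the mean liver of those litter mates had a median of 0.303 over the members and 0.0407 over all 8295 genes. It was over 0.5 for 42 members (21%) and for 2.18% of all 8295 genes. The vehicle values entered the choice of the members, so these shares are a description. The average transcript length followed the same pattern in both organs (r over 0.5) for 5 members (2.5%), against 0.675% of all 8295 genes.

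The highest correlations belonged to genes with 2 separate levels. For 10 members the sorted values parted at a gap of more than 1 on the log2(CPM + 1) scale in both organs, with at least 3 males on each side and with each male on the same side in liver and kidney. None of the 8095 other genes met this rule. A wide gap that parts the same males in both organs itself makes r high, so this contrast and the high rank follow from the rules. These 10 had r between 0.815 and 0.991, none carried a symbol, and they held 9 of the 11 highest values. The remaining 2 of these 11, ENSRNOG00000029386.5 (r 0.9861) and ENSRNOG00000047706.3 (r 0.9452), spanned 0.02695 to 112.1 CPM and 7.454 to 85.19 CPM in vehicle liver without meeting the rule. The next in rank, ENSRNOG00000055020.1 (r 0.9206), was at 0.0 to 13.54 CPM in liver and 0.0 to 24.2 CPM in kidney.

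ENSRNOG00000030704.4, with the highest r (0.991), was low in 19 vehicle males, at 0.0 to 0.621 CPM in liver and 0.0 to 0.41 CPM in kidney. The other 8 males lay at 13.9 to 27.1 CPM in liver and 15.7 to 40.3 CPM in kidney, so that neither organ had a male between the levels. ENSRNOG00000028993.1 was the reverse in its shares, with 4 males at 0.0 to 0.179 CPM in liver and 23 at 15.1 to 72.4 CPM. A library with 0 counts of a gene is compatible with up to 3, by counting error alone. The levels of ENSRNOG00000045967.2 split the males almost evenly, with 13 at 0.384 to 1.88 CPM and 14 at 8.73 to 21.6 CPM in liver, and at 1.95 to 4.6 CPM and 17.5 to 38.1 CPM in kidney. ENSRNOG00000017286.7 kept a higher floor, since its 3 low males were at 11.4 to 11.6 CPM in liver against 54.4 to 252.0 CPM in the other 24. ENSRNOG00000029844.5 differed between organs in its floor, with 9 low males at 9.43 to 20.7 CPM in liver and at 0.0 to 0.0736 CPM in kidney, while the 18 high males were at 104.0 to 1130.0 CPM and 8.07 to 52.3 CPM. The remaining 5 genes were low in 3 to 13 vehicle males, with both levels set by the same males in both organs as the rule requires.

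The 56 dosed livers were not used to choose the genes, and most of the 10 genes kept apart there. The number of dosed livers that lay between the levels of the vehicle livers was 0 for ENSRNOG00000005975.6 and ENSRNOG00000000768.6, 1 for ENSRNOG00000028993.1 and ENSRNOG00000017286.7, 2 for ENSRNOG00000033517.4 and ENSRNOG00000045967.2 and 4 for ENSRNOG00000030704.4. For ENSRNOG00000005975.6, for instance, 9 dosed livers were at 0.0 to 0.0443 CPM and 47 at 17.7 to 156.0 CPM. The levels were less distinct for ENSRNOG00000029844.5, with 10 dosed livers between them, ENSRNOG00000012067.6 with 13 and ENSRNOG00000049314.1 with 27.

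**Figure D2:**
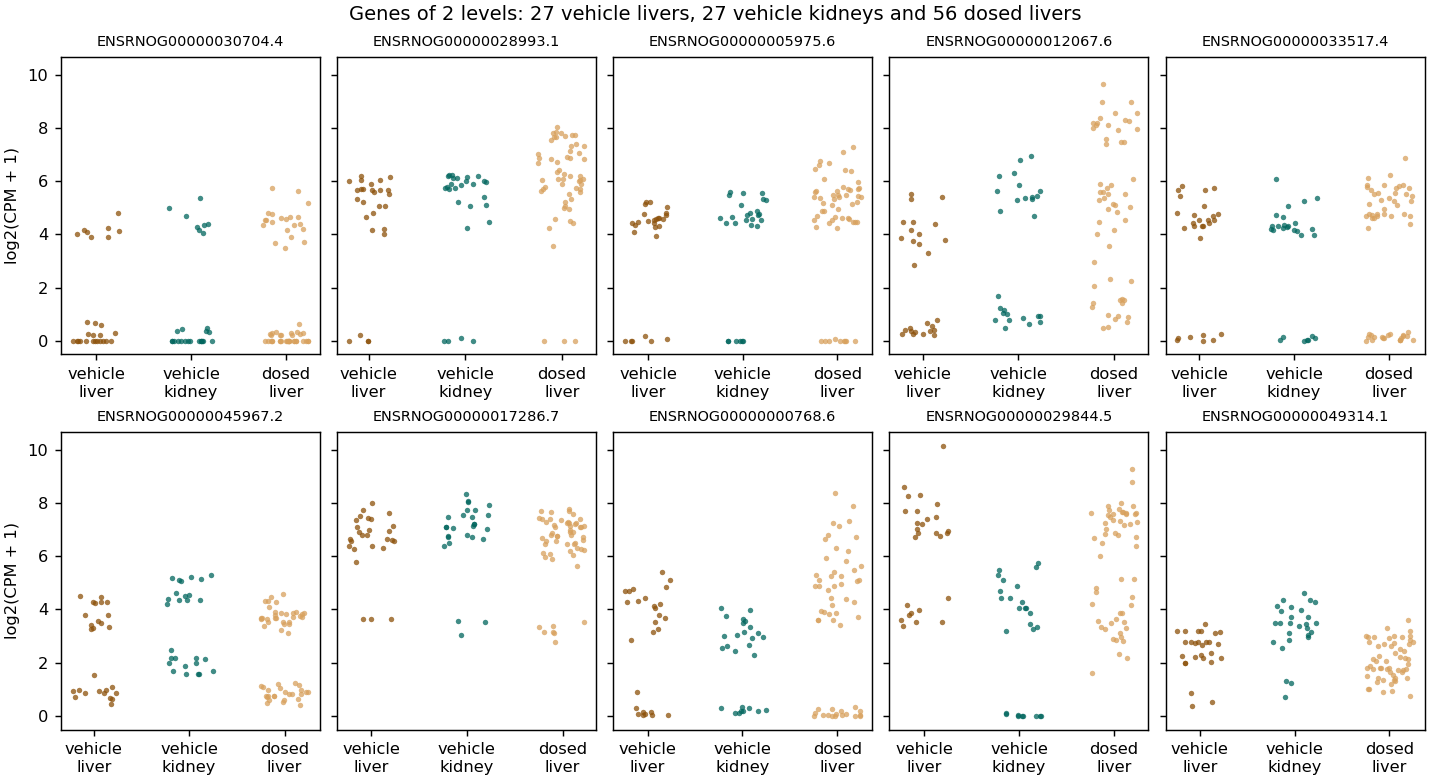
Values of the 10 genes of 2 levels, 1 panel per gene, as log2(CPM + 1) on the y axis, with 1 point per sample for 27 vehicle livers, 27 vehicle kidneys and 56 dosed livers (horizontal scatter within a column has no meaning). In both vehicle columns the points form separate bands, and for ENSRNOG00000049314.1 the 56 dosed livers fill the gap, with 27 of them between the bands.

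Levels were also compared between litter mates. In the 28 litters with at least 2 males, 72 pairs of litter mates were set beside the 3331 other pairs of males, each male placed by the midpoint between the 2 levels in liver. For ENSRNOG00000045967.2, 83.3% of the litter pairs stood on the same level and 49.0% of the other pairs, and for ENSRNOG00000030704.4 the shares were 80.6% and 53.4%. The shares were closest for ENSRNOG00000028993.1, at 86.1% and 84.3%. Pairs share males and litters, so these shares are a description. Litters in which every male was on the same level numbered 14 of 28 for ENSRNOG00000012067.6, the fewest, and 23 of 28 for ENSRNOG00000028993.1 and ENSRNOG00000017286.7, the most. Among the 10 genes, the pair most alike (ENSRNOG00000028993.1 and ENSRNOG00000049314.1) put 68 of 83 males on the same level, so no pair split the males in the same way.

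Litter was tested in the 56 dosed livers, with the mean of each group in the model. Of the 200 members 1 passed, Zbtb16 (edgeR's quasi-likelihood F test with Benjamini-Hochberg adjustment, adjusted p = 0.075), against 0.132% of all genes tested and 0.0844% of the 8295. At an unadjusted p under 0.05 there were 63 members (31.5%), 6 of the 10 genes of 2 levels among them, and 807 of the 8295 genes (9.73%). The smallest values among the genes of 2 levels were those of ENSRNOG00000033517.4 (adjusted p = 0.109) and ENSRNOG00000045967.2 (adjusted p = 0.125). Each litter lay on 1 date, and with the date in the model Zbtb16 did not pass and the count was 0. It was 1 without replicate 5 of group 22. DESeq2's likelihood ratio test called 97 members (48.5%) in the same livers, against 20.1% of the 8295 genes, so the count rests on the method.

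Among the clock genes of the day arm (repressors and output factors), 7 of the 14 on the list had an identifier, 6 of them were among the 8295 genes and 5 were members. Nr1d1 (r 0.8437) ran from 3.75 to 86.28 CPM in vehicle liver with a median of 19.11 and from 13.26 to 85.91 CPM in kidney with a median of 37.71. Per1 (r 0.8401), a repressor that also responds to glucocorticoids, ran from 1.89 to 33.3 CPM in liver and from 11.77 to 110.3 CPM in kidney. Usp2 (r 0.8172), a deubiquitinase with a strong daily rhythm, Nr1d2 (r 0.6815) and Dbp (r 0.6387) were the other members. Cry2, the remaining one of the 6, had an r of 0.065. In the night arm (activators and genes of their phase) 3 of 7 had an identifier and 2 were among the 8295 genes. Of these, Cry1, a repressor that peaks with the activators, was a member (r 0.7874), and Arntl, which encodes Bmal1, had an r of 0.555, just below the limit.

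Of 18 glucocorticoid-induced genes on the list 9 had an identifier, 7 were among the 8295 genes and 4 were members. These were Tsc22d3, which encodes the leucine zipper protein GILZ (r 0.8804), Per1, Zbtb16, a zinc finger transcription factor (r 0.7870), and Fkbp5, a co-chaperone that lowers the sensitivity of the glucocorticoid receptor (r 0.7312). Zbtb16 spanned 0.9999 to 66.81 CPM in vehicle liver and 0.8206 to 52.27 CPM in kidney, so its lowest males were close to 1 CPM in both organs. Cdkn1a (r 0.426), Klf9 (0.292) and Glul (-0.102) were not members. No member came from the lists of immediate early genes, heat shock, hypoxia and fasting, sterol synthesis, interferon response, xenobiotic metabolism or the mitochondrial genome, of which 0 to 3 genes per list had an identifier.

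The other members with a symbol came from varied processes, and those named in this paragraph were picked after their values were seen. P2rx4, an ATP-gated ion channel, had the highest r of the 34 (0.8813) and ran from 18.6 to 49.93 CPM in vehicle liver and from 13.53 to 47.79 CPM in kidney. Its kidneys had a median of 32.5 CPM with an untreated and 16.1 CPM with a treated grandsire, but both groups reached from about the same floor, 13.5 and 14.1 CPM, to over 40 CPM. Rtfdc1 (r 0.8622), a factor of replication termination, had the closest match to litter mates of the 34, with an r of 0.8655 between the vehicle livers and the mean dosed livers of the litter, and ran from 20.38 to 45.5 CPM in vehicle liver. Rrn3 (r 0.8289) is an initiation factor of ribosomal RNA transcription, Pdia5 (r 0.7772) a disulfide isomerase of the endoplasmic reticulum and Zfp189 (r 0.7849) a zinc finger protein. Pdia5 spanned 7.161 to 78.15 CPM in vehicle liver and 1.469 to 11.39 CPM in kidney. Nfe2l2 (r 0.5945), the regulator of the oxidative stress response, varied less, from 61.57 to 176.7 CPM in liver and from 111.5 to 149.4 CPM in kidney.

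Whether the clock and glucocorticoid genes also move together was asked in the 56 dosed livers, with group means removed. In these livers the median absolute r was 0.305 over all pairs of the genes from which the members were chosen. How many of those pairs would pass the test below was not computed. A count of passing pairs therefore does not show that these genes move together more than others. Over the 36 pairs of the 9 clock and glucocorticoid genes, 17 had an adjusted p under 0.05 (permutation test, 100000 resamples, two-sided, Benjamini-Hochberg over the 36), 13 of them positive and 4 negative, and 15 of the 17 also passed by Spearman's rho. Zbtb16, Fkbp5, Per1, Tsc22d3 and Usp2 were all positively correlated with each other by Pearson's r, from 0.39 for Usp2 and Fkbp5 to 0.75 for Zbtb16 and Fkbp5. Usp2 and Fkbp5 were the weakest of these pairs, since their rho of 0.30 had an adjusted p of 0.054, r was 0.20 with the dates centred and -0.25 on date 3. Tsc22d3 and Fkbp5 went from an r of 0.42 to 0.22 with the dates centred. The negative r of -0.38 between Tsc22d3 and Nr1d1 did not pass by rho either (-0.28, adjusted p = 0.072). Nr1d1, Nr1d2 and Dbp were positively correlated with each other, and Cry1 was negatively correlated with each of these 3. Nr1d1 and Dbp had an r of 0.64, but of -0.02 on date 3.

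**Figure D3:**
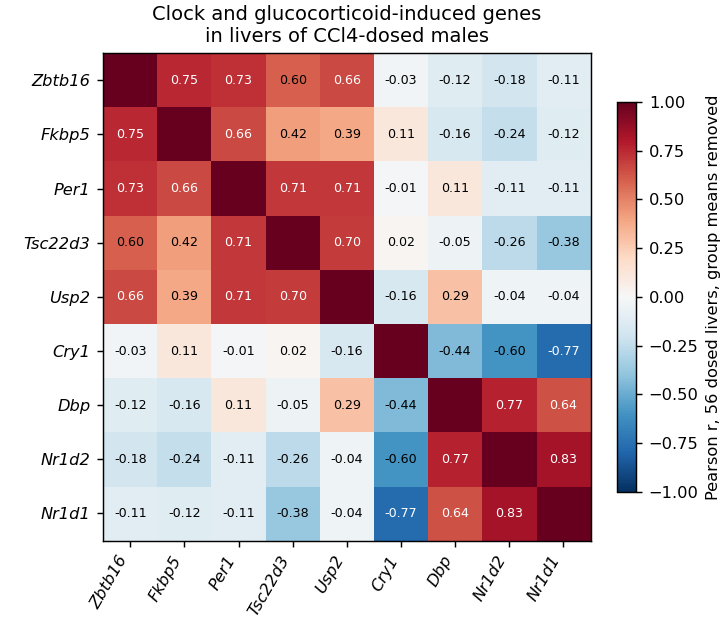
Pearson's r between 9 clock and glucocorticoid-induced members over 56 dosed livers with group means removed, as a colour from -1 (blue) to 1 (red) with the value in each cell. The block of Zbtb16 to Usp2 at the upper left and that of Dbp, Nr1d2 and Nr1d1 at the lower right are positive, with Cry1 negative against the latter (r of -0.77 with Nr1d1).

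Nr1d1 and Nr1d2 had an r of 0.83 and a Spearman's rho of 0.79 over the 56 livers (permutation p = 1e-05 for both, the smallest that 100000 resamples can give, adjusted p = 3e-05 and 3.3e-05), with 0.80 after leaving out the 2 livers farthest from the median. Within the 4 dates r was 0.90, 0.89, 0.34 and 0.82. Nr1d1 and Cry1 had an r and a rho of -0.77 (permutation p = 1e-05, adjusted p = 3e-05 and 3.3e-05), -0.77 without the 2 farthest livers, and -0.76, -0.68, -0.82 and -0.79 within dates. Zbtb16 and Fkbp5 had an r of 0.75 and a rho of 0.70 (permutation p = 1e-05, adjusted p = 3e-05 and 3.3e-05), 0.73 without the 2 farthest and 0.58, 0.73, 0.65 and 0.68 within dates. Of the 17 pairs, 12 had the same sign on all 4 dates. Tsc22d3 and Zbtb16 (r 0.60, rho 0.53, permutation p = 1e-05 and 2e-05, adjusted p = 3e-05 and 5.5e-05, 0.55 without the 2 farthest) did not, with -0.11 on date 4 against 0.60, 0.47 and 0.51 on the other dates. Over all members the median absolute r between pairs in the dosed livers was 0.18, with 9.56% of pairs over 0.5, against 0.305 and 24.3% over all 8295 genes, so the 200 members as a whole were not a group of genes that move together.

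The necropsy date was tested in the dosed livers too. Of the 200 members 8 passed (edgeR's quasi-likelihood F test, adjusted p under 0.1), against 1.4% of all genes tested and 0.53% of the 8295, and 7 without replicate 5 of group 22. These were Zbtb16 (adjusted p = 0.000604), Tcim (0.0206), Ip6k2, an inositol phosphate kinase (0.045), Zfp354a, a zinc finger repressor (0.0452), Fkbp5 (0.0452), ENSRNOG00000019519.7 (0.047), Per1 (0.0522) and Tsc22d3 (0.0955). The mean deviation of Zbtb16 from the group means of log2(CPM + 1) in dosed livers was -0.97 on date 1, 1.1 on date 2, -0.60 on date 3 and 0.17 on date 4. The vehicle kidneys gave -1.05, 0.67, -0.66 and 0.80, and the vehicle livers -0.80, 0.38, -0.70 and 0.82, in the same order of dates.

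The effect of F0 treatment was estimated beside F1 treatment and dose over the 83 livers, 42 with an untreated and 41 with a treated grandsire. Of the members 31 passed, 9 higher and 22 lower after F0 treatment, against 12.2% of the 8295 genes (6.12% higher and 6.05% lower) and 7.33% of all genes tested. Of these 31, 30 were among the 34 genes with a symbol, which the study had listed for this effect. The count was 35 without replicate 3 of group 17 and 36 without replicate 5 of group 22. In the 56 dosed livers, which did not enter the choice of members, 20 passed, 5 higher and 15 lower, against 3.69% of the 8295 genes (1.9% higher and 1.78% lower) and 2.2% of all genes tested, and the count was 12, 4, 17 and 3 without dates 1 to 4 in turn and 23 without replicate 5 of group 22. Litter mates have the same grandsire treatment and the fit takes each male as independent, while members were more alike between litter mates than other genes were, so the counts were also taken with 1 mean per litter (limma on log2(CPM + 1)). Litters are not independent for F0 either. Brothers were taken as F1 sires, so their litters share the grandsire, the unit that was treated. No fit took 1 value per grandsire. Over 34 litters 16 members then passed, 6 higher and 10 lower, against 3.8% of the 8295 genes. Over the 32 litters with dosed males 9 passed, 1 higher and 8 lower, against 1.41% of the 8295 genes. These 9 were Zbtb16, Fkbp5, Tsc22d3, Usp2, Zfp354a, Srsf5, Minpp1, Herpud1 and Ube2g2, a ubiquitin-conjugating enzyme. The median log2 fold change of the 34 genes with a symbol was -0.247 in all livers and -0.250 in the dosed livers, and none of the 10 genes of 2 levels passed in either.

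Of the 18 glucocorticoid-induced genes on the list, the 9 with an identifier were all lower with a treated grandsire in the 83 livers, and the rest could not be read. This is no independent evidence, because the study had listed these genes on the same samples. In dosed livers, Zbtb16 was at 1.34 to 65.5 CPM with a median of 21.5 in males with an untreated grandsire and at 0.905 to 31.5 CPM with a median of 2.81 in the others. The log2 fold change was -2.41 ± 0.354 (SE, adjusted p = 0.000126) in dosed livers and -2.37 ± 0.287 (adjusted p = 3.83e-08) in all livers, and the difference in means was negative on each date, from -1.18 on date 1 to -2.74 on date 4. Although the medians were far apart, the ranges overlapped. Fkbp5 had medians of 59.0 and 32.1 CPM in dosed livers and fell by 0.78 ± 0.134 (SE, adjusted p = 0.00101) on the log2 scale. Tsc22d3 fell by 0.84 ± 0.221 (adjusted p = 0.0371), from a median of 31 to 19.1 CPM. Per1 fell by 0.99 ± 0.277 (adjusted p = 0.0518), but its difference was 0.01 on date 1 and 0.64 on date 3, against -1.70 and -1.28 on dates 2 and 4, and so did not hold within every date. With 1 mean per litter Zbtb16 (-2.04 ± 0.367, adjusted p = 0.0137), Fkbp5 (adjusted p = 0.0122) and Tsc22d3 (adjusted p = 0.074) passed and Per1 (-0.84 ± 0.289, adjusted p = 0.233) did not.

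The clock genes moved in both directions. Of the 7 day-arm genes with an identifier 5 were higher and 2 lower with a treated grandsire in the 83 livers, and of the 3 night-arm genes 1 was higher and 2 lower. Dbp was at 1.27 to 21.8 CPM with a median of 4.23 in dosed livers with an untreated grandsire and at 1.99 to 87.9 CPM with a median of 4.98 in the others (log2 fold change 1.03 ± 0.324 (SE), adjusted p = 0.0914), and the groups overlapped widely. Its difference in mean log2(CPM + 1) was 0.99 at the low and 0.14 at the high dose, and with 1 mean per litter it was 0.45 ± 0.241 (adjusted p = 0.507). Usp2 fell by 1.03 ± 0.236 (SE, adjusted p = 0.0137) and Cry1 by 0.44 ± 0.136 (adjusted p = 0.0888) in dosed livers, and with 1 mean per litter Usp2 passed (adjusted p = 0.0431) and Cry1 did not (adjusted p = 0.383). Nr1d1 had medians of 12.0 and 33.2 CPM there. It was higher in all 83 livers (log2 fold change 0.97 ± 0.233, adjusted p = 0.00498), while in the dosed livers alone its log2 fold change of 0.90 ± 0.298 had an adjusted p of 0.118. The same held for Nr1d2, with 0.41 ± 0.110 (adjusted p = 0.0143) in all livers and 0.42 ± 0.141 (adjusted p = 0.122) in dosed livers.

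Other members with a symbol changed in both directions too. Zfp354a had a log2 fold change of -1.52 ± 0.312 (SE, adjusted p = 0.00452) in dosed livers and medians of 19.7 and 10 CPM, and its difference in mean log2(CPM + 1) was -1.45 at the low and -0.54 at the high dose. Srsf5, a splicing factor, rose by 0.34 ± 0.069 (adjusted p = 0.00452), Oaf, a secreted protein, by 0.53 ± 0.121 (adjusted p = 0.0137) and Prkag2, a regulatory subunit of the energy sensor AMPK, by 0.26 ± 0.078 (adjusted p = 0.0772). For Prkag2 this lay at the low dose, where the difference in mean log2(CPM + 1) was 0.43, against -0.02 at the high dose, and for Oaf the differences were 0.60 and 0.34. Ddx18 fell by 0.26 ± 0.074 (adjusted p = 0.0599), Minpp1, an inositol polyphosphate phosphatase, by 0.29 ± 0.066 (adjusted p = 0.0137) and Pdia5 by 0.48 ± 0.147 (adjusted p = 0.0847). Minpp1 differed by -0.12 at the low and -0.47 at the high dose. Whether these differences changed with dose was not tested. With 1 mean per litter Oaf (adjusted p = 0.132), Prkag2 (0.246), Ddx18 (0.176) and Pdia5 (0.138) did not pass.

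**Figure D4:**
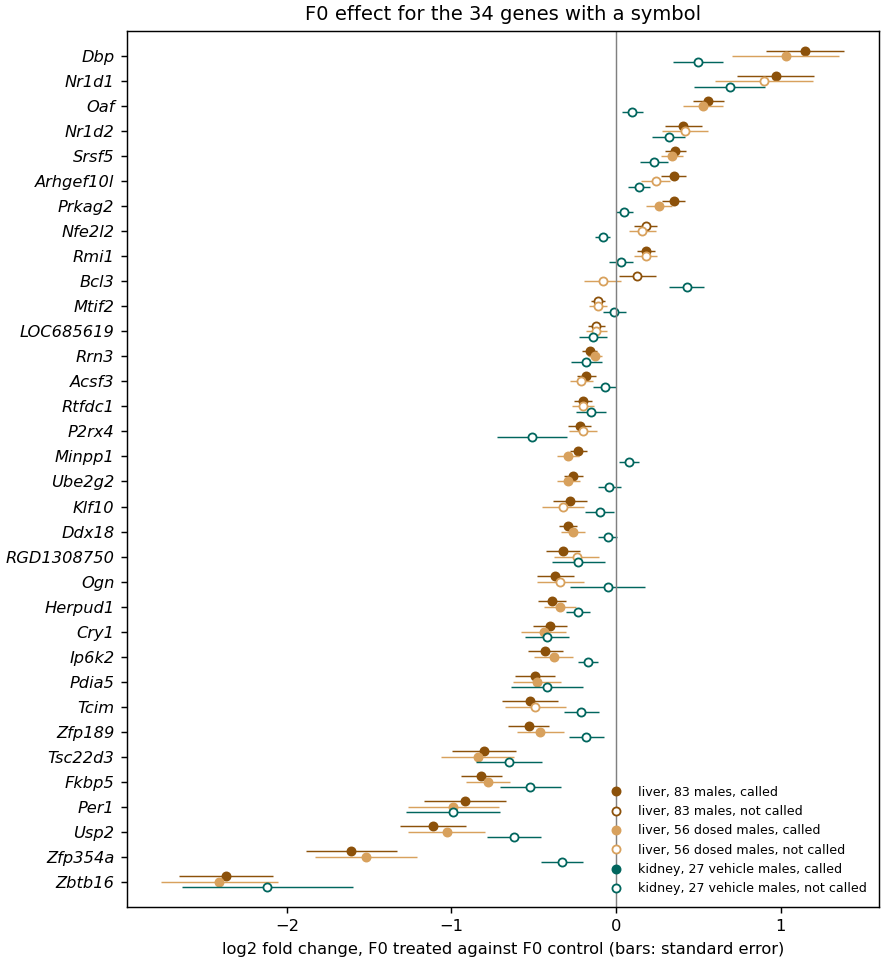
Log2 fold change of F0 treated against F0 control for the 34 members with a symbol (rows), with standard errors as bars, in 83 livers, 56 dosed livers and 27 vehicle kidneys. Filled points passed the test and open points did not, and all kidney points are open, with Zbtb16 at -2.37, -2.41 and -2.12 in the 3 fits.

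In the 27 kidneys no member passed for the F0 effect, against 0.0109% of all genes tested and 0.0121% of the 8295, although 30 (15%, against 8.19% of the 8295) had an unadjusted p under 0.05 and DESeq2 called 4 (2%, against 0.47%). Zbtb16 had a log2 fold change of -2.12 ± 0.519 (SE, adjusted p = 0.237). Dbp was at 0.50 ± 0.152 (adjusted p = 0.325), Per1 at -0.99 ± 0.284 (adjusted p = 0.313) and Nr1d1 at 0.69 ± 0.216 (adjusted p = 0.346). F1 treatment gave no call among the members in either organ. In liver 0.0474% of all genes tested and 0.0603% of the 8295 passed, and 26 members (13%, against 12.1%) had an unadjusted p under 0.05, while DESeq2 called 0 (against 0.121%), as did edgeR without either of the 2 livers. In kidney the share was 0.0% of both, with 16 members (8%, against 4.98% of the 8295) at an unadjusted p under 0.05 and 0 calls by DESeq2 (against 0.0%).

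Group 20 (both ancestors treated) was compared with group 11 (neither) among vehicle males in both organs. These 14 males entered the choice of members through their residuals, whereas the group means had been removed. In liver 16 members passed, 9 higher and 7 lower, against 5.53% of all genes tested and 7.87% of the 8295. Of the 8295, 5.12% were higher and 2.75% lower, so in liver the members passed about as often as those genes. Without date 4 the count of members in liver was 0. In kidney 7 passed, 4 higher and 3 lower, against 0.702% of all genes tested and 0.663% of the 8295 (0.253% higher and 0.41% lower), and it was 4, 0, 14 and 0 without dates 1, 2, 3 and 4 in turn. Zbtb16 in liver was at 8.33 to 66.5 CPM with a median of 29.0 in group 11 and at 1.0 to 8.81 CPM with a median of 2.8 in group 20 (log2 fold change -3.15 ± 0.734 (SE), adjusted p = 0.00825). In kidney it was at 12.3 to 48.9 CPM in group 11 and at 0.821 to 4.23 CPM in group 20, with no overlap (-3.39 ± 0.718, adjusted p = 0.0451). Dbp showed no overlap in liver, at 1.17 to 2.55 CPM in group 11 and 4.08 to 19.9 CPM in group 20 (2.23 ± 0.569, adjusted p = 0.0172), and a smaller difference in kidney, at 8.95 to 19.9 CPM and 16.5 to 36.2 CPM (0.94 ± 0.215, adjusted p = 0.0744). In kidney Bcl3, a nuclear cofactor of NF-kappaB, was higher (0.72 ± 0.147, adjusted p = 0.0339) and Per1 lower (-1.57 ± 0.381, adjusted p = 0.0816), and Herpud1, a protein of endoplasmic reticulum stress, was lower in kidney (-0.39 ± 0.101, adjusted p = 0.0974) and in liver (-0.73 ± 0.197, adjusted p = 0.0265).

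The 2 organs of a male were then set against each other. The difference of liver minus kidney between group 20 and group 11 (limma on log2(CPM + 1)) passed for 4 members, against 1.46% of the genes tested. Arhgef10l was at 10.3 to 20 CPM in group 11 and 22.9 to 37.5 CPM in group 20 in liver, without overlap, and at 39.7 to 61.2 CPM and 51.7 to 75.1 CPM in kidney, with overlap (difference 0.69 ± 0.162 (SE), adjusted p = 0.0641). Prkag2 was at 5.12 to 10.8 CPM against 9.92 to 15.7 CPM in liver and at 17.7 to 20.6 CPM against 19.9 to 22.8 CPM in kidney (0.62 ± 0.160, adjusted p = 0.0741). Oaf was at 64.9 to 143.0 CPM against 135.0 to 179.0 CPM in liver and at 36.2 to 53.9 CPM against 46.9 to 58.3 CPM in kidney (0.68 ± 0.177, adjusted p = 0.0752). The organs went opposite ways in their medians for the remaining gene, and ENSRNOG00000012681.9 (-0.47 ± 0.115, adjusted p = 0.0689) was at 67.9 to 101.0 CPM against 58.0 to 86.4 CPM in liver and at 6.72 to 10.7 CPM against 6.74 to 13.4 CPM in kidney. For Zbtb16 the difference between organs was 0.06 ± 0.393 (adjusted p = 0.959) and for Per1 -0.11 ± 0.330 (adjusted p = 0.91), intervals wide enough to hold a change of sign.

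Groups 17 and 14 were compared with the same group 11, so these comparisons share its males. Group 17 against 11 gave 3 members in liver, against 0.274% of all genes tested and 0.241% of the 8295, and 7 without replicate 3 of group 17 (3.5%, against 0.856% of the 8295). ENSRNOG00000013090.7 was the one higher, at 1.41 to 4.39 CPM in group 11 and 5.99 to 41.9 CPM in group 17 (log2 fold change 2.96, adjusted p = 0.011), and the groups did not overlap. Herpud1 (-0.91, adjusted p = 0.0705) and Zfp354a (-2.67, adjusted p = 0.0919) were lower. For ENSRNOG00000013090.7 the low-dose interactions of B, C and D against A, which also use group 11, were -2.13, -2.07 and -1.46, and none was called. Whether group 17 or group 11 stood apart for this gene was not tested. In kidney the count was 0 against 0.0% of the genes tested, with 23 members (11.5%, against 4.77% of the 8295) at an unadjusted p under 0.05 and 1 call by DESeq2 (0.5%, against 0.0241%). Group 14 against 11 gave 0 in liver, against 0.0105% of all genes tested, with 17 (8.5%, against 6.16% of the 8295) at an unadjusted p under 0.05 and 1 call by DESeq2 (0.5%, against 0.121%). In kidney it gave 0 against 0.0%, with 13 (6.5%, against 3.21%) at an unadjusted p under 0.05 and 0 calls by DESeq2.

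The response to CCl4 was read in liver as each dose against the vehicle group of its cohort, with a log2 fold change over 1 required. At the low dose 1 member passed in cohort A, 1 in B, 5 in C and 5 in D, all of them higher, and with the litter as a block the counts were 1, 2, 2 and 5. The shares of all genes tested were 3.7%, 3.65%, 4.46% and 4.25%, and those of the 8295 genes 0.663%, 0.542%, 0.663% and 0.735%, of which 0.591%, 0.518%, 0.567% and 0.687% higher. ENSRNOG00000020938.7 passed in every cohort, with log2 fold changes of 1.65, 1.35, 1.45 and 1.40. It was at 5.10 to 12.1 CPM with a median of 7.35 in vehicle livers, 9.90 to 51.2 CPM with a median of 22.2 at the low dose and 7.82 to 202.0 CPM with a median of 35.4 at the high dose, so that the ranges overlapped slightly. ENSRNOG00000029195.5 passed in cohorts C (1.43, adjusted p = 0.000973) and D (1.41, adjusted p = 0.000292), and over all cohorts was at 4.08 to 9.46 CPM in vehicle livers and 5.6 to 40.3 CPM at the low dose.

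At the high dose 22, 26, 27 and 24 members (11%, 13%, 13.5% and 12%) passed in cohorts A, B, C and D. The shares of the 8295 genes were 9.19%, 9.85%, 7.2% and 8.07%, and those of all genes tested 21.7%, 26.4%, 21.7% and 22.6%, so the share of the members lay above that of genes expressed in both organs and below that of all genes. More were lower than higher, with 8 higher and 14 lower in A, 10 and 16 in B, 4 and 23 in C and 9 and 15 in D. The 8295 genes were also more often lower in A (3.42% higher and 5.76% lower), B (3.98% and 5.87%) and C (2.92% and 4.28%), but not in D (4.24% and 3.82%). Without replicate 5 of group 22, the library least like its group, cohort D gave 16 members (8%, against 6.41% of the 8295), and without replicate 3 of group 17 cohort C gave 23 (11.5%, against 7.38%), 6 higher and 17 lower, and 6 at the low dose. At least 1 cohort called 44 members (22%), against 14.1% of the 8295 genes, and the same direction in all 4 was found for 3 higher (1.5%, against 1.86%) and 8 lower (4%, against 2.21%).

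**Figure D5:**
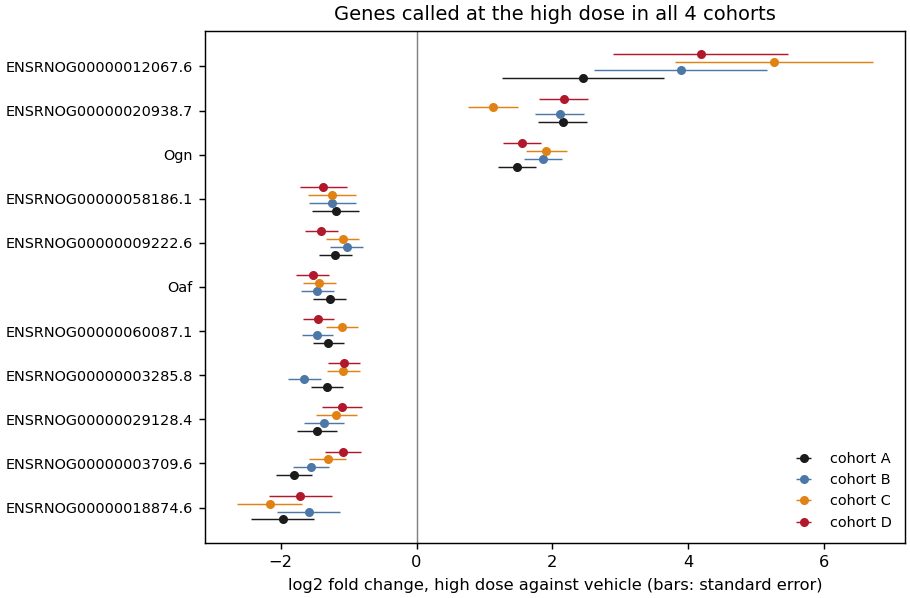
Log2 fold change of the high CCl4 dose against vehicle in liver for the 11 members that passed in all 4 cohorts (rows), with 1 point per cohort and standard errors as bars. The 3 genes at the top lie right of 0 and the 8 others left of it in every cohort, and ENSRNOG00000012067.6 has the widest bars.

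Ogn, which encodes osteoglycin, a small proteoglycan of the extracellular matrix, rose at the high dose in each cohort, with log2 fold changes of 1.48, 1.86, 1.91 and 1.55 in A to D (largest adjusted p = 7.89e-06). It was at 2.63 to 9.88 CPM with a median of 5.33 in vehicle livers, 4.18 to 15.7 CPM at the low dose and 10.3 to 82.2 CPM with a median of 26.0 at the high dose, so that vehicle and high-dose livers did not overlap. Its vehicle kidneys were at 11.4 to 50.1 CPM. Oaf fell in each cohort, by 1.28, 1.46, 1.43 and 1.53 on the log2 scale (largest adjusted p = 9.17e-06). Unlike Ogn, ENSRNOG00000003709.6 was at 127.0 to 265.0 CPM in vehicle livers and 27.3 to 163.0 CPM at the high dose, with overlap, and its log2 fold changes ran from -1.80 in A to -1.08 in D.

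ENSRNOG00000012067.6, one of the genes of 2 levels, was also higher at the high dose in all cohorts, by 2.45 ± 1.19, 3.89 ± 1.271, 5.26 ± 1.456 and 4.18 ± 1.287 (log2 fold change and SE, largest adjusted p = 0.0898). The males on its upper level were at 6.18 to 44.3 CPM with a median of 16.2 in 14 of 27 vehicle livers, at 3.70 to 57.9 CPM with a median of 36.6 in 18 of 28 low-dose livers and at 3.14 to 808.0 CPM with a median of 256.0 in 25 of 28 high-dose livers. The males below the midpoint, which at 2.51 CPM sets a ceiling for them, were at 0.161 to 0.716 CPM, 0.392 to 1.98 CPM and 1.68 to 1.90 CPM, so that the 3 of the high dose lay above every low vehicle male. Where the bands meet, the level of a male cannot be told apart from its response to the dose. The upper level of ENSRNOG00000028993.1 had medians of 49.2, 51.9 and 148.0 CPM in vehicle, low-dose and high-dose livers, while its low males were at 0.0 CPM in both dosed classes. That of ENSRNOG00000000768.6 had medians of 18.1, 20.7 and 66.7 CPM. Neither gene passed in any cohort, and ENSRNOG00000028993.1 had log2 fold changes of 0.89, 1.16, 1.5 and 1.58 in A to D (smallest adjusted p = 0.102). In ENSRNOG00000045967.2 the upper medians were 12.9, 11 and 13.1 CPM.

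No member differed between cohorts in its dose response past the threshold. The cohort by dose interactions of B, C and D against A called 0 members and 0.0% of the genes tested in all 6 tests by edgeR. DESeq2 called 0 members too, against 0.0% to 0.0964% of the 8295 genes, and the interactions of C and D still gave 0 members without the 2 livers least like their groups. At an unadjusted p under 0.05 cohorts B, C and D had 2, 4 and 2 members (1%, 2% and 1%, against 0.47%, 1.07% and 1.25% of the 8295 genes) in the low-dose interactions and 7, 9 and 14 (3.5%, 4.5% and 7%, against 3.51%, 2.74% and 8.14%) in the high-dose ones.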

How the data were processed

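RNA was measured in 83 livers and 27 kidneys of F2 male rats. Per the labels and the methods, the authors sequenced stranded mRNA libraries, estimated transcript abundance with Salmon 0.14.0 and summed it per gene with tximport under R 3.5.0. Deposited by the authors were estimated counts per gene, as whole numbers without normalization, and average transcript lengths in bases, another unit that the authors deposited and that was used here only as offsets and in 1 correlation. No column of another series was present (0).

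Groups came from the sample labels, and necropsy dates and litters from the study's supplement. The 200 members, the gene lists and the tests were chosen with earlier results of these data known. A gene was tested where the counts of some group summed to more than 10 (19004 in liver). Counts were normalized by TMM and fitted with edgeR 4.0.16 (quasi-likelihood test, Benjamini-Hochberg adjustment over all genes tested), with limma 3.58.1 for the difference between organs, under R 4.3.3. Calls required an adjusted p under 0.1, beside an absolute log2 fold change over 1 for dose and a mean normalized count over 50 for the F0 and F1 effects. DESeq2 1.42.0, other normalizations and filters, length offsets, date terms, litter blocks and left-out males were alternatives, and leaving out dates or the 2 libraries least like their group, or taking 1 mean per litter in limma, was added after seeing the data. The fits were tested on simulated data. CPM is relative to the library total, so levels are not compared between genes, and depth limits the precision of low values by counting error.

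Named genes are the 12 of highest r, the members of the lists and, for each test, up to 5 members per direction (8 for litter and date) with the smallest adjusted p. Some others, such as P2rx4, Rtfdc1 and Pdia5, were named after their values were seen. Antisense and near-identical genes share reads that the authors' estimates may split, which was not tested. Fewer than 80% of the genes on each list had an identifier.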

Additional observations from a re-analysis of the deposited data

Results flagged for a closer look

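Dbp in the kidney of group 20 had 1 male apart from the rest. Replicate 5, taken on necropsy date 3, was at 16.5 CPM, while the other 6 males were at 26.1 to 36.2 CPM. The gap made up 0.583 of the range of the group, above Dixon's critical value of 0.568 for 7 samples. It was the single male that stood apart in 64 groups searched, and chance alone marks about 1 in 20 groups.

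The change between groups 11 and 20 differed between the organs of the same males for 4 members (2%), against 1.46% of the 8295 genes tested. Liver minus kidney was larger in group 20 for Arhgef10l by 0.69, for Prkag2 by 0.62 and for Oaf by 0.68 on the log2(CPM + 1) scale, and for ENSRNOG00000012681.9 it was -0.47 (limma, adjusted p of 0.0641, 0.0741, 0.0752 and 0.0689). None of the 4 had an adjusted p under 0.05, and with the necropsy date as a term 12 members passed.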

How the results depend on the processing

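Of 211 member counts under another setting, 175 stayed within 1.5 times the main count, 20 were lower, 15 higher and 1 moved. The 211 include overlaps of the member list with those of other rules and left-out males, and the 175 include counts that stayed at 0. A count has no sign that could reverse. Of 903 values of named members, 797 kept their call, 106 lost it and none changed sign. With the litter as replicate block, which pairs males across doses, the low dose gave 2 members in cohort B and 2 in cohort C, and the high dose 27, 26, 20 and 26 in A to D, with no other call of a dose or interaction count moved past 1.5 times. With an adjusted p under 0.05 there were 3 members at the low dose in C, 9 for F0 in dosed livers, 1 for group 17 in liver and 2 for group 20 in kidney, with 0 for the organ difference and 0 for litter. DESeq2 called 4 members for F0 in kidney, 8 for group 17 and 1 for group 14 in liver, 17 for group 20 and 1 for group 17 in kidney, and 97 for litter. A date term gave 1 for F0 in kidney, 13 for group 20 in kidney and 12 for the organ difference, and left 0 for litter. Length offsets gave 2 for group 20 in kidney and 2 for litter, no filter on low counts 3 at the low dose in C and 10 for litter, and DESeq2's size factors 1 for group 14 in liver. The 27 vehicle males alone gave 8 for F0 in liver. The cause was not tested in any of these.

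Settings chosen after seeing the data left out dates or libraries, or took 1 mean per litter, which gave 16 members for F0 in liver and 9 in dosed livers. F0 in dosed livers gave 12, 4, 17 and 3 members without dates 1 to 4. Group 20 against 11 gave 0 in liver without date 4, and 4, 0, 14 and 0 in kidney without dates 1 to 4. Without replicate 3 of group 17 there were 7 for group 17 in liver, and without replicate 5 of group 22 the high dose in D gave 16.

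The members themselves depended on the rule. A mean CPM of at least 1 in place of 5 kept 130 of the 200, Spearman's rho 157, TMM scaling 168, centring on the date 164, no centring 165 and a pseudocount of 0.1 199. Leaving out each of the 27 males in turn kept 159 to 192, and 107 were kept throughout, 8 of the genes of 2 levels and 19 with a symbol among them.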
